A study of Mus musculus with 31 samples.

Results

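H3K9me3 was compared between mouse male germ cells of embryonic stage E13.5 and primordial germ cells of stage E10.5, on the 19 autosomes. The comparison takes every broad H3K9me3 peak list of the 2 groups, 3 lists each, which hold 149975 autosomal peaks of the 265293 peaks, sex chromosomes included, in all 18 lists of the series. The E13.5 male lists hold 51695, 42954 and 28069 autosomal peaks (replicates 1, 2 and 3), and the E10.5 lists hold 2643, 23717 and 897. Because the E10.5 lists are so unequal, each of them is described apart.

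Both groups are wild type, with the genetic background given as C57BL/6 x GOF18delta_PE-EGFP. GOF18delta_PE-EGFP is a reporter in which Pou5f1 regulatory sequence without its proximal enhancer drives EGFP, and the cells were sorted by flow cytometry. The E13.5 cells are labelled male. Cells of several embryos were combined at E10.5 and carry no sex label, so stage and sex cannot be told apart in this comparison. Each library was made by native ChIP on 1000 cells digested with micrococcal nuclease, and each list was called against an input library. The H3K9me3 input of E10.5 replicate 2 is titled E10.5, but its stage label is E13.5, and the title was followed here. The E13.5 male lists held 87 to 135 peaks on chromosome Y and the E10.5 lists 17 to 85. The E13.5 female lists of the same mark held 5 or 6. These counts cannot be ranked as they stand, because the lists differ in size. With all chromosomes, the male lists hold 30688 to 56632 peaks, the E10.5 lists 1107 to 26281 and the female lists 6720 to 20297. Relative to list size, each E10.5 list had more chromosome Y peaks than each male list, and each female list had fewer. Peak lists carry no expression, so the cell type was not checked against marker genes. Whether replicates stem from separate embryos is not stated, so each p-value reflects library-to-library spread alone, which may be technical.

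H3K9me3 is laid down by enzymes such as SETDB1 and SUV39H1 and is bound by HP1 proteins, which compact the chromatin. In mouse cells it is known for covering satellite repeats near the centromeres, endogenous retroviruses, and clusters of zinc-finger genes. Germ cells lose DNA methylation during this part of development, and the series asked how chromatin marks behave during that loss. In mouse primordial germ cells SETDB1 is known to keep retroviral elements silent. Positions below are in mm9, and genes and repeats were not assigned to them because no annotation of that build was used.

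E13.5 male germ cells had more autosomal H3K9me3 in peaks than E10.5 cells on average, but E10.5 replicate 2 lay inside the male range. Peaks covered 74.0, 43.4 and 23.5 Mb in the E13.5 male lists and 1.80, 42.7 and 0.351 Mb in the E10.5 lists. As a share of the autosomes this was 2.99, 1.75 and 0.952% in E13.5 male cells and 0.0728, 1.73 and 0.0142% in E10.5 cells. Replicate 2 of E10.5 lay between male replicates 2 and 3, while E10.5 replicates 1 and 3 lay below every male list. E13.5 male lists averaged 46.9 ± 25.4 Mb, against 14.9 ± 24.0 Mb for E10.5 lists (SD, n = 3 each), and their difference of 32.0 Mb gave p = 0.2 in an exact two-sided permutation test (0.6 adjusted over 4 tests). No test of 3 against 3 lists can go below 0.1. With peaks of a deposited score of at least 20 in every list, the difference became -3.95 Mb, and at 897 top-ranked peaks per list it was 0.156 Mb. The minimum of 20 kept 7.95, 9.52 and 16.2% of the peaks in E13.5 male lists and 99.4, 43.0 and 75.8% in E10.5 lists. In length the E13.5 male lists kept 4.16 to 7.18 Mb and E10.5 replicate 2 kept 25.6 Mb. The scale of the score is not known, and the lowest score in a list was 11.7 to 12.4 in E13.5 male lists, against 14.002 to 19.7 in E10.5 lists.

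The width of single peaks did not separate the stages. Median widths were 890, 716 and 616 bp in the E13.5 male lists and 464, 1068 and 298 bp in the E10.5 lists. E10.5 thus held both the widest and the narrowest median, with the male lists between them. E13.5 male lists averaged 741 ± 139 bp, against 610.0 ± 405 bp for E10.5 lists (SD, n = 3 each), with p = 0.7 in the exact permutation test (0.933 adjusted). The difference of 131 bp turned to -25.3 bp without E10.5 replicate 3.

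Wide domains set E10.5 replicate 2 apart from male replicate 2, whose total length was nearly the same. At a width of at least 5 kb, 360 peaks made up 5.84% of the covered length in E13.5 male replicate 2, against 1677 peaks and 30.8% in E10.5 replicate 2. The remaining shares were 18.99 and 3.18% in E13.5 male replicates 1 and 3, and 2.08 and 0% in E10.5 replicates 1 and 3. Group means were 9.34 ± 8.47% for E13.5 male lists and 10.96 ± 17.2% for E10.5 lists (SD, n = 3 each, exact permutation p = 1). The spacing of the peak calls also differed between libraries. The smallest gap between neighbouring peaks was 709 to 729 bp in the E13.5 male lists and 987, 1053 and 564 bp in the E10.5 lists, in each case about 4 times the smallest peak width. Once peaks at most 1 kb apart were joined in all lists, wide domains held 35.8, 17.2 and 8.38% in E13.5 male and 2.08, 30.8 and 4.33% in E10.5 cells. That join could not change E10.5 replicate 2, whose smallest gap is 1053 bp, and it left 2640 and 852 domains in E10.5 replicates 1 and 3. The male lists went from 51695, 42954 and 28069 peaks to 42453, 36872 and 25702 domains. After joining at most 5 kb, the shares were 76.2, 74.8 and 66.1% in E13.5 male and 23.4, 74.2 and 42.5% in E10.5 cells. E10.5 replicate 2 then lay within the range of the male lists, and its difference from male replicate 2 at 5 kb was under 1 percentage point.

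**Figure D1:**
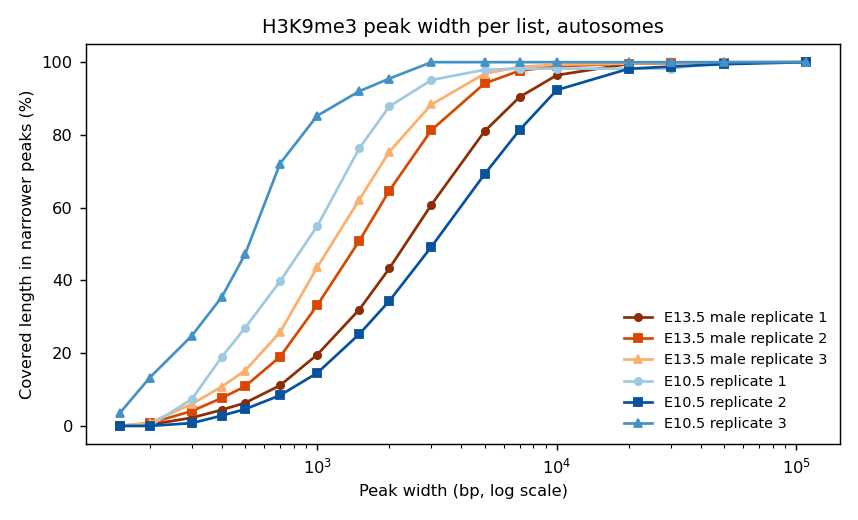
Share of the autosomal H3K9me3 length (y, percent) that lies in peaks narrower than a given width (x, bp, log scale), 1 line per list. Between 300 and 10000 bp the curves of the 3 E13.5 male lists lie between that of E10.5 replicate 2, farthest to the right, and that of E10.5 replicate 3, farthest to the left.

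Lists of such unequal length were also set side by side at equal numbers of their own top-ranked peaks. Among the top 897 peaks, as many as the shortest list holds, median widths were 419, 387 and 376 bp in E13.5 male and 424, 689 and 298 bp in E10.5 lists. At 2643 peaks they were 745, 445 and 441 bp in E13.5 male, and 464 and 1184 bp in E10.5 replicates 1 and 2. E10.5 replicate 1 was therefore as narrow as male replicates 2 and 3 once the number of peaks was equal. At 10000 peaks the medians were 1158.5, 752 and 646 bp in E13.5 male and 1554 bp in E10.5 replicate 2. With 23717 peaks, the whole of E10.5 replicate 2, they were 1247, 808 and 645 bp in E13.5 male and 1068 bp in E10.5 replicate 2, which then lay between male replicates 1 and 2.

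Held stretches of H3K9me3 often lay side by side along the chromosomes, though seldom in E10.5 replicate 1, a short list. A 10-kb bin counts as held when at least 1 kb of it lies in peaks. Held bins with a held neighbour made up 60.2, 56.0 and 45.7% of the bins in the E13.5 male lists, and 6.89, 57.3 and 38.6% in the E10.5 lists. E10.5 replicate 2 was again inside the male range, and E10.5 replicate 1 had the lowest share. Of all autosomal bins, the lists held 8.67, 5.79 and 3.21% in E13.5 male and 0.217, 4.82 and 0.0231% in E10.5. The neighbour share that random placement would give differs with these values and was not computed. Lists of unlike length therefore cannot be ranked by their clustering from these shares. Of the 57 bins of E10.5 replicate 3, 5 formed a single run. E13.5 male lists averaged 53.96 ± 7.49%, against 34.3 ± 25.5% for E10.5 lists (SD, n = 3 each, exact permutation p = 0.3, 0.6 adjusted). Since more length gives more neighbours, the top 897 peaks of each list were compared too: the shares were then 36.4, 35.4 and 35.1% in E13.5 male and 12.2, 45.9 and 38.6% in E10.5 lists. The mean difference shrank from 19.7 to 3.39 percentage points at that number, and it was -5.98 points where a bin counted only with 50% or more of its length in peaks.

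**Figure D2:**
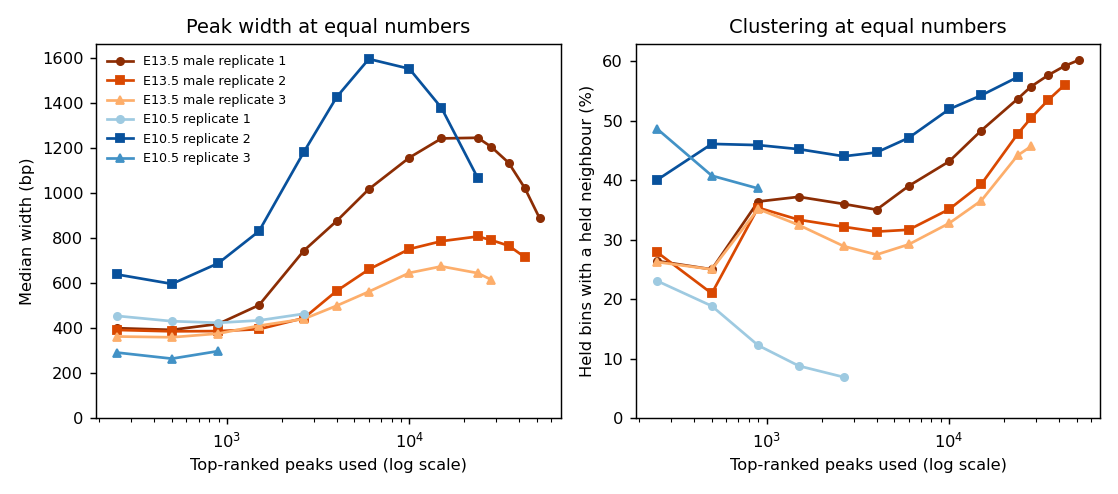
Median peak width (left, bp) and share of held 10-kb bins with a held neighbour (right, percent) against the number of top-ranked autosomal peaks taken from each list (x, log scale). E10.5 replicate 2 lies above the male lists up to 10000 peaks in both panels, and E10.5 replicate 1 has the lowest share of neighbours, 6.89% with all its 2643 peaks.

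The longest runs of held bins were marked at both stages. In E13.5 male replicate 1 the longest run was 1150 kb on chromosome 7 from 15180001 to 16330000. Peaks covered 656.6, 474 and 288 kb of it in the E13.5 male lists, and 5.12, 572 and 3.90 kb in the E10.5 lists. In E10.5 replicate 2 the longest run was 1220 kb on chromosome 5 from 94670001 to 95890000, with 671.5, 559 and 323 kb in E13.5 male and 7.18, 751 and 4.61 kb in E10.5 lists. At both runs E10.5 replicate 2 lay above male replicates 2 and 3, and the short E10.5 lists held only a few kb. The next longest run of male replicate 1 was 850 kb on chromosome 17 from 38570001 to 39420000, with 348, 265 and 89.1 kb in E13.5 male lists and 171 kb in E10.5 replicate 2, below male replicates 1 and 2. That of male replicate 2 was 510 kb on chromosome 7 from 33940001 to 34450000, with 289, 206 and 106 kb in E13.5 male lists and 252 kb in E10.5 replicate 2.

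With all peaks, most bins held by an E10.5 list were held by E13.5 male cells as well. Of the 537 bins of E10.5 replicate 1, 447 (83.2%) were held by all 3 male lists and 8 (1.49%) by none. For E10.5 replicate 3 the numbers were 54 and 2 of 57 bins. Replicate 2 of E10.5 held 11919 bins, of which 5173 (43.4%) were held by all male lists, 3779 by 2, 1931 by 1, and 1036 (8.69%) by none. For this list the share held by any male list was 91.3% with all peaks, 80.0% with 23717 top-ranked peaks per list, and 30.01% of 6825 bins with scores of at least 20. In the other direction, E10.5 replicate 2 held 48.8, 59.5 and 76.0% of the bins of E13.5 male replicates 1, 2 and 3, highest for the shortest male list. The male lists hold 8.67, 5.79 and 3.21% of all autosomal bins, and E10.5 replicate 2 holds 4.82%.

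Judged by shared length, E10.5 replicate 2 was as close to the male lists as they were to each other. The Jaccard index, shared length over the length in either list, was 0.306, 0.255 and 0.232 between E13.5 male replicates 1, 2 and 3 and E10.5 replicate 2. Among the male lists it was 0.277 (replicates 1 and 2), 0.187 (1 and 3) and 0.182 (2 and 3). The index cannot exceed the ratio of the shorter to the longer list, which is lowest for male replicates 1 and 3. By held 10-kb bins the index was 0.457, 0.481 and 0.436 with E10.5 replicate 2. Among the male lists it was then 0.536 (1 and 2), 0.334 (1 and 3) and 0.392 (2 and 3), so male replicates 1 and 2 were the closest pair. Shared length was 27.3, 17.5 and 12.5 Mb with the E13.5 male lists, or 37.0, 40.4 and 53.0% of those lists and 64.0, 41.0 and 29.2% of E10.5 replicate 2. E10.5 replicate 3 lay within the male lists for 64.3 to 80.8% of its length, within E10.5 replicate 2 for 77.7%, and within E10.5 replicate 1 for 18.2%. These shares cannot be ranked against each other, since replicate 1 covers only 0.0728% of the autosomes.

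**Figure D3:**
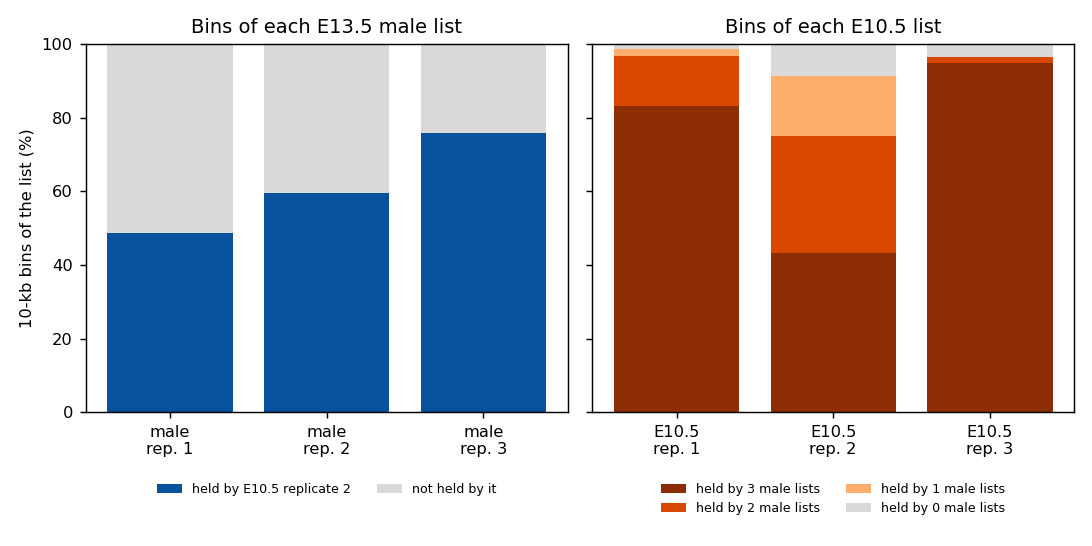
Left, share of the held 10-kb bins of each E13.5 male list (y, percent) that E10.5 replicate 2 also holds. Right, bins of each E10.5 list by the number of E13.5 male lists that hold them: all 3 male lists held 83.2, 43.4 and 94.7% of the bins of E10.5 replicates 1, 2 and 3.

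Peaks found at both stages were the wider and higher-ranked ones of their list. In E13.5 male replicate 1, the 20417 peaks that overlapped a peak of E10.5 replicate 2 had a median width of 1680 bp, and the remaining peaks had 656 bp. The 2242 that overlapped E10.5 replicate 1 had a median of 3003.5 bp and a median score at the 86.5th percentile of the list. In male replicates 2 and 3, peaks overlapping E10.5 replicate 1 had median widths of 1310 and 1121.5 bp, against 701 and 601 bp for the rest, and median scores at the 82.0th and 77.6th percentiles. A wider peak has more room to overlap, and widths and ranks come from the same calls. The same held between male replicates, where peaks of replicate 1 shared with replicate 2 had a median of 1518 bp against 593 bp for the rest.

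How many bins separated the groups, and in which direction, changed with the lists and peaks used. All 3 male lists and no E10.5 list held 892 bins, which is 3.61% of the 24710 bins held by any of the 6 lists, and the opposite arrangement gave 0 bins (0%). The second count requires all E10.5 lists, of which replicate 3 holds only 57 bins. All 3 E10.5 lists shared 22 bins, so the count could not exceed 22, and the 3 male lists held each of these too. Without E10.5 replicate 2 the male count was 5592, without male replicate 3 it was 4293, and without male replicate 2 it was 1476. The E10.5 count was 5 without E10.5 replicate 3 and 1 without replicate 1. When E10.5 was represented by replicate 2 alone, an alternative chosen after seeing the data, all male lists held 898 bins that it lacked (3.63% of 24706), and it held 1036 that no male list had (4.19%). With 23717 top-ranked peaks from each of these 4 lists the numbers were 284 and 2387, and with a score of at least 20 they were 15 and 4777, both chosen after seeing the data.

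The 892 male bins were thinly covered and seldom adjacent to each other. They formed 862 runs, 833 of them a single bin, and the longest was 30 kb. Single-bin runs held 93.4% of them, and 89.5% of the 1036 bins of E10.5 replicate 2 alone. Runs count bins of the same class only, so marked bins could lie beside them. Of the 892, 571 (64.0%) lay next to a bin of male replicate 1 and 374 (41.9%) next to one of E10.5 replicate 2. Among all 24710 bins held by any of the 6 lists these shares were 58.3 and 41.6%. Their median coverage was 2.88, 1.91 and 1.44 kb in the E13.5 male lists, against 5.03, 3.13 and 2.17 kb in the 5173 bins that E10.5 replicate 2 also held. E10.5 replicate 2 was not empty there: its median was 0.359 kb, and 335 of the 892 bins (37.6%) had no peak length in any E10.5 list. Of the 1036 bins of E10.5 replicate 2 alone, 246 (23.7%) had no peak length in any male list. The E13.5 female lists, which cover 3.29 to 9.75 Mb of the autosomes, left out 799 of the 892 (89.6%), close to the 84.1% left out among all 24710 bins held by any of the 6 lists. Of the 5173 shared bins, 2710 (52.4%) were in no female list. H3K27me3 peaks, the mark of Polycomb, touched at most 0.448% of the 892 bins in any E13.5 male list and at most 1.01% in any E10.5 list, against 0.133 to 1.61% of all autosomal bins in E13.5 male lists and 0.575 to 5.89% in E10.5 lists.

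The longest male region was chromosome 3 from 20640001 to 20670000, with 7.25, 5.82 and 6.52 kb in peaks in the E13.5 male lists and 0, 1.21 and 0 kb in the E10.5 lists. It was also the most even of the 5 longest, with a mean of 6.53 ± 0.716 kb in E13.5 male lists and 0.403 ± 0.699 kb in E10.5 lists (SD, n = 3 each). Chromosome 6 from 130650001 to 130670000 held 12.6, 7.65 and 3.46 kb in E13.5 male and 0, 0.915 and 0 kb in E10.5 lists. Chromosome 9 from 12450001 to 12470000 held 12.1, 10.6 and 2.64 kb in E13.5 male and 0.287, 0.936 and 0 kb in E10.5 lists. Male replicate 3, the shortest male list, was the lowest at both. That every male list exceeded every E10.5 list in these 5 regions follows from how they were chosen, so it is no further result. Chromosome 7 from 9250001 to 9270000 held 11.6, 9.17 and 2.75 kb in E13.5 male and at most 0.690 kb in E10.5 lists. Chromosome 17 from 38430001 to 38450000 held 8.58, 8.05 and 3.28 kb in E13.5 male and at most 1.25 kb in E10.5 lists. In none of the 5 regions did an H3K27me3 list of either group have any peak length.

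The 5 longest regions held by E10.5 replicate 2 and by no male list all lay on chromosome 12. Chromosome 12 from 24550001 to 24580000 held 0.598, 0.702 and 0 kb in E13.5 male lists and 15.1 kb in E10.5 replicate 2. From 22960001 to 23000000 the values were 0.231, 0 and 0 kb in E13.5 male and 11.0 kb in E10.5 replicate 2. From 22880001 to 22910000 they were 1.32, 0 and 0.244 kb in E13.5 male and 13.97 kb in E10.5 replicate 2. The region from 21700001 to 21730000 held at most 0.523 kb in an E13.5 male list and 9.57 kb in E10.5 replicate 2. That from 22280001 to 22310000 held at most 2.08 kb in an E13.5 male list and 9.07 kb in E10.5 replicate 2. E10.5 replicate 3 had no peak length in any of these 5 regions, and replicate 1 had 0.357 kb at the one from 22960001 and none elsewhere among them. So these regions rest on a single E10.5 library.

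**Figure D4:**
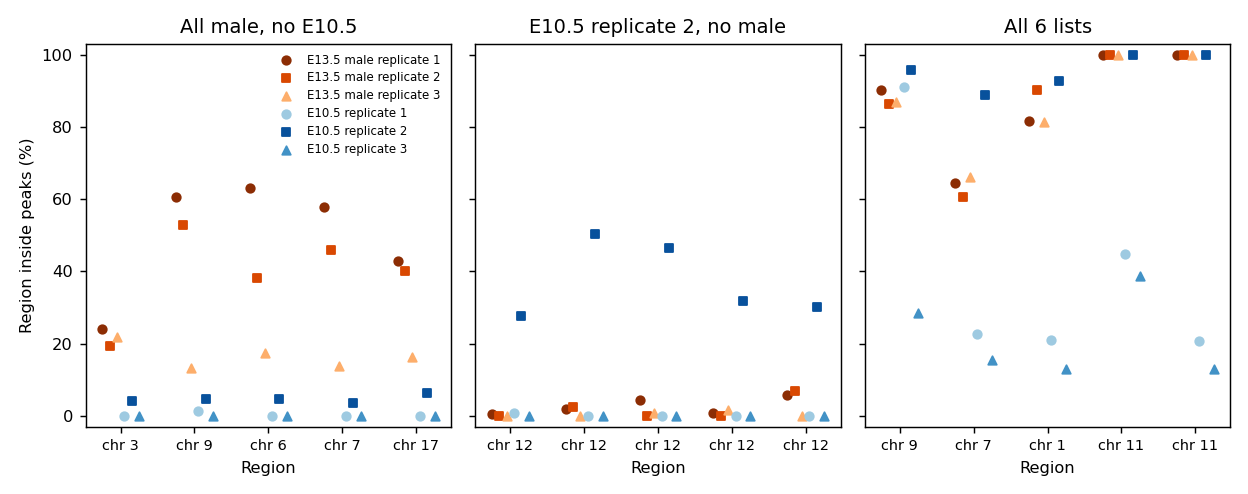
Share of each named region that lies in H3K9me3 peaks (y, percent), 1 point per list, for the 5 longest regions held by all E13.5 male and no E10.5 lists (left), by E10.5 replicate 2 and no male list (middle), and by all 6 lists (right). The middle panel holds chromosome 12 regions only, and the chromosome 9 and 11 regions of the right panel are 80% or more in peaks in each male list and in E10.5 replicate 2.

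The surrounding 6 Mb were marked at both stages. On chromosome 12 from 19000001 to 25000000, a window chosen after its values were seen, peaks covered 1550.1, 984 and 705 kb in E13.5 male lists and 26.7, 2284 and 7.25 kb in E10.5 lists. As a share of each list this was 2.096, 2.27 and 2.997% in E13.5 male and 1.48, 5.35 and 2.06% in E10.5. Of the 600 bins of the window, E13.5 male lists held 355, 285 and 249 and E10.5 replicate 2 held 432. The window contained 70 of the 1036 bins that E10.5 replicate 2 held alone, against 432 of all its 11919 bins and 600 of the 247207 autosomal bins. Because the window was chosen where the longest of these regions lie, the count of 70 is no further result. The E13.5 female lists had 1.97, 4.51 and 3.93% of their length there, which overlaps both groups.

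All 6 lists held 22 bins, and their median coverage was 7.10, 7.08 and 7.11 kb in E13.5 male lists and 2.51, 9.27 and 1.90 kb in E10.5 lists. H3K27me3 peaks touched 18.2 to 27.3% of these 22 bins in the E13.5 male and E10.5 lists of that mark. Among all autosomal bins this was 0.133 to 5.89%. Chromosome 9 from 3000001 to 3040000 held 36.1, 34.5 and 34.8 kb in E13.5 male and 36.4, 38.3 and 11.4 kb in E10.5 lists, out of 40 kb. It lies at the start of the assembled chromosome, beside the centromere. Chromosome 7 from 67000001 to 67040000 held 25.8, 24.3 and 26.4 kb in E13.5 male and 9.03, 35.5 and 6.18 kb in E10.5 lists. Chromosome 1 from 85320001 to 85340000 held 16.3, 18.05 and 16.3 kb in E13.5 male and 4.197, 18.5 and 2.58 kb in E10.5 lists. On chromosome 11 the 10-kb bins from 3060001 and from 3090001 were covered end to end in each male list and in E10.5 replicate 2. The count of 22 rose to 443 without E10.5 replicate 3 and to 52 without replicate 1.

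The widest single peaks fell at these shared places. In E13.5 male replicates 1 and 2 the widest peak lay on chromosome 11 from 3049678 to 3100059 (50382 bp) and from 3049668 to 3100054 (50387 bp), and in replicate 3 from 3052343 to 3100035 (47693 bp). Of the interval of male replicate 1, E10.5 replicates 1, 2 and 3 covered 8.27, 50.4 and 16.7 kb. The widest peak of E10.5 replicate 2 was 105710 bp on chromosome 1 from 85227423 to 85333132, of which the E13.5 male lists covered 97.8, 93.2 and 86.5 kb. In E10.5 replicate 1 the widest was 31915 bp on chromosome 9 from 3006334 to 3038248. That of E10.5 replicate 3 was 2477 bp on chromosome 17 from 13743545 to 13746021, and it was covered in full by each male list. H3K27me3 lists also had peaks at the start of chromosome 9, with 9.10 to 24.9 kb of the 40-kb region in E13.5 male and 7.63 to 27.6 kb in E10.5 lists, and the part of repeats in this was not tested.

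Chromosome 7 carried the most H3K9me3 for its length in the 3 male lists and in E10.5 replicate 2, but not in E10.5 replicates 1 and 3, where chromosomes 13 (1.42) and 1 (2.098) were highest. Its share of the covered length over its share of the autosomes was 1.81, 2.07 and 2.00 in E13.5 male and 1.06, 2.31 and 1.84 in E10.5 lists. Chromosome 12 came next in E13.5 male cells, at 1.29, 1.32 and 1.52, against 1.11, 2.08 and 0.979 in E10.5 lists. Chromosome 1, at 1.08 ± 0.029 for E13.5 male lists, was the second highest at E10.5 by its mean of 1.43 ± 0.595, which rested on 2.098 in replicate 3. Chromosomes 11 and 8 were lowest in E13.5 male cells, at 0.562 ± 0.017 and 0.693 ± 0.019, with 0.969 ± 0.535 and 0.723 ± 0.117 at E10.5. Chromosomes 2 and 19, at 0.694 ± 0.021 and 0.808 ± 0.056 in E13.5 male lists, were lowest at E10.5, with 0.659 ± 0.161 and 0.660 ± 0.231 (SD, n = 3 each). The SD over the male lists was under 0.14 on each autosome, and that over the E10.5 lists reached 0.628.

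All 3 male lists lay above all E10.5 lists on chromosomes 3, 6 and 17. Each gave p = 0.1 in the exact permutation test, the smallest that 3 against 3 lists allow, and 0.633 adjusted over the 19 autosomes, so no autosome could have passed. Chromosome 3 had 1.06 ± 0.084 in E13.5 male, against 0.758 ± 0.159 in E10.5 lists, chromosome 6 had 1.04 ± 0.060 in E13.5 male, against 0.789 ± 0.147 in E10.5 lists, and chromosome 17 had 1.25 ± 0.045 in E13.5 male, against 1.12 ± 0.048 in E10.5 lists (SD, n = 3 each). No autosome had all male lists below all E10.5 lists.

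**Figure D5:**
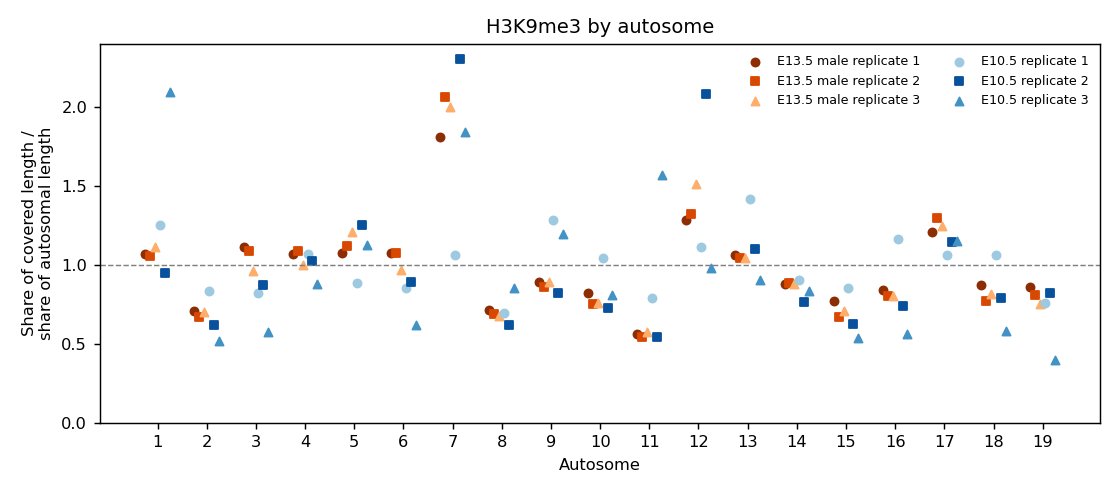
Share of the covered H3K9me3 length on each autosome over that autosome's share of autosomal length (y, ratio), 1 point per list, with the dashed line at 1. The E13.5 male points lie close together, chromosome 7 is high in 5 of 6 lists, and chromosome 12 is high in E10.5 replicate 2 at 2.08.

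Gene family numbers per autosome were set beside these ratios, using RefSeq only for the chromosome of each gene. Chromosome 7 has 93 of the 388 Zfp genes on autosomes, which encode zinc-finger proteins, 239 of 1104 Olfr genes for odorant receptors, and 178 of 354 Vmn1r and Vmn2r genes for pheromone receptors. Across the 19 autosomes the number of Vmn genes per Mb correlated with the H3K9me3 ratio at Pearson r = 0.798, 0.830 and 0.758 in the E13.5 male lists and 0.164, 0.661 and 0.406 in the E10.5 lists. Without chromosome 7 these were 0.482, 0.515 and 0.370 in E13.5 male and 0.187, 0.192 and 0.00861 in E10.5 lists. Spearman's rho over 19 autosomes was 0.650, 0.636 and 0.651 in E13.5 male and 0.203, 0.622 and 0.308 in E10.5 lists, so by rank E10.5 replicate 2 was close to the male lists. For Zfp genes the r over 19 autosomes was 0.591, 0.645 and 0.595 in E13.5 male and 0.197, 0.511 and 0.410 in E10.5 lists, and without chromosome 7 it was at most 0.231 in any list. For Olfr genes r lay between -0.0550 and 0.187 in the 6 lists, and without chromosome 7 it was -0.451, -0.407 and -0.405 in E13.5 male and -0.116, -0.360 and -0.105 in E10.5 lists. Autosomes are not replicates, and the points of a list share its library, so these values only describe the lists.

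The relative distribution along the autosomes was tested in 1-Mb bins, as the share of each list's own length in ppm. With limma on log2(ppm + 100), 0 of 2349 bins passed an adjusted p of 0.05 in either direction (0%), and the smallest adjusted p was 0.326. At an unadjusted p under 0.05 there were 320 bins, 294 higher and 26 lower in E13.5 male cells, where 5% of the tested bins is 117.4. With scores of at least 20 there were 91 of 1818 bins, 57 higher and 34 lower, where 5% is 90.9. The median change over all tested bins depended on the pseudocount, at 1.53 with 10 ppm, 0.50 with 100 ppm and 0.069 with 1000 ppm, and it was 0.19 with scores of at least 20. Without E10.5 replicate 2, so that the male lists met only the short E10.5 lists, 200 bins passed, 183 higher and 17 lower in E13.5 male cells.

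Among the bins with the smallest unadjusted p, chromosome 6 from 19000001 to 20000000 held 1789, 2038 and 1672 ppm in E13.5 male lists and 0, 1024 and 0 ppm in E10.5 lists. Its change was 3.10 ± 0.75 (SE, limma adjusted p = 0.326), and every male list exceeded every E10.5 list. Chromosome 17 from 62000001 to 63000000 held 129, 52.9 and 90.2 ppm in E13.5 male lists and was at 0 ppm in all E10.5 lists. Chromosome 19 from 26000001 to 27000000 held 127, 132 and 87.3 ppm in E13.5 male lists and 0, 16.1 and 0 ppm in E10.5 lists. The smallest peak of E10.5 replicates 1 and 3 alone amounts to 136 and 398 ppm, above every male value in these last bins, so only E10.5 replicate 2 is informative there. In the other direction, chromosome 10 from 7000001 to 8000000 held 795, 713 and 925 ppm in E13.5 male and 3995, 990 and 13970.5 ppm in E10.5 lists. E10.5 replicate 2 was there close to the male lists. Chromosome 11 from 106000001 to 107000000 held 91.5, 104 and 84.1 ppm in E13.5 male and 1136, 198 and 2808 ppm in E10.5 lists. Chromosome 2 from 27000001 to 28000000 held 79.6, 148 and 235 ppm in E13.5 male and 2355.5, 184 and 2942 ppm in E10.5 lists. In kb the same chromosome 10 bin held 58.8, 30.9 and 21.8 kb in E13.5 male and 7.19, 42.3 and 4.91 kb in E10.5 lists, so the short lists had high ppm there with less marked length.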

How the data were processed

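Each deposited list holds the broad peaks of 1 ChIP library, and its peak names point to an input as control. Per the submitters' processing notes, mm9 was the build, and MACS2 2.1.0, deepTools 3.3.0, BWA 0.7.5a, CASAVA 1.8.4, SAMtools and Picard were used in steps that they do not assign. For peak thresholds no value is given by these sources. The authors' score per peak (column 9 of the deposited lists) has an unknown scale and was used only to rank or filter peaks within a list. Read depth is unknown, and list length is the closest measure of precision.

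Groups came from the sample titles. The autosomal length, 2472 Mb, is the sum of the last peak ends. Values per list went into an exact permutation test (two-sided, 20 assignments), with Benjamini-Hochberg adjustment. One-Mb bins with peaks in at least 3 of the 9 H3K9me3 libraries were fitted with limma 3.58.1 in R 4.3.3, using all 9 libraries. This step was run on simulated normal values with 200 of 2349 bins changed. It recovered 79% of them at a log2 change of 3, with 15 false calls, and 99.5% at 6, with 7 false calls. The simulation gave all groups the same spread, so it does not show how the step handles the unequal E10.5 lists. Counts and overlaps used Python 3.11.15. Alternatives were other peak sets, bin rules, joined peaks, pseudocounts and left-out libraries, and those with E10.5 replicate 2 alone were added after seeing the data. The 13 input libraries were not used here. Named regions are the 5 longest per class, the widest peak per list, the 3 bins with the smallest p per direction, and the 2 highest and 2 lowest autosomes per group. The members and lists were chosen with earlier results of these data known. Gene counts per chromosome came from the RefSeq table of GRCm38.p6, whose coordinates were not used because the build differs.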

Additional observations from a re-analysis of the deposited data

How the results depend on the processing

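When each list was limited to scores of 20 or more, the differences of E13.5 male from E10.5 lists turned to -3.95 Mb for length, -107.5 bp for median width, 6.16 percentage points for the share in wide peaks, and -1.06 points for neighbouring bins. With the 897 top-ranked peaks per list, median width turned to -76.3 bp and the wide share to 15.7 points. Joining peaks at most 1 kb apart turned the wide share to 8.07 points, though that join left E10.5 replicate 2 unchanged. Requiring 50% of a bin turned the neighbour difference to -5.98 points.

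Leaving out 1 library gave 18.5 to 45.9 Mb for length, -25.3 to 359.7 bp for median width, -7.10 to 8.30 points for the wide share and 6.01 to 31.2 points for neighbours. The wide share changed sign without E13.5 male replicate 2 (0.126), male replicate 3 (1.46) or E10.5 replicate 2 (8.30). It gave 894 to 5592 male bins, 0 to 5 E10.5 bins, 22 to 443 bins of all 6 lists, and 0 to 200 of the 1-Mb bins.

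Male bins numbered 15 with the score minimum, 9 with 897 peaks, 3395 with any overlap, 8 with 50% of a bin, 2185 with 5-kb bins and 45 with 50-kb bins. Bins of all 6 lists numbered 182 with any overlap, 0 with 50% of a bin, 69 with 5-kb bins, 4 with 50-kb bins, and 5173 with E10.5 replicate 2 alone, where E10.5 bins numbered 1036. Against E10.5 replicate 2 alone, male bins were 15 and 284, and its own bins 4777 and 2387, with the score minimum and with 23717 peaks per list. For these changes of count the cause was not tested, beyond fewer peaks, samples or bins entering. Same-numbered lists did not deviate together in their relative distribution (r = 0.00212, 0.0631 and -0.00351 over 1-Mb bins), and the replicate numbers were not taken as pairs. These values use shares of each list's own length, so they cannot show an effect on list length that same-numbered lists share. Replicate 3 was the shortest list in each group, at 23.5 Mb in E13.5 male, 0.351 Mb in E10.5 and 3.29 Mb in E13.5 female cells. Why was not tested. With a replicate block the differences in length, width, wide share and neighbours stayed 32.0 Mb, 131 bp, -1.62 and 19.7 points by construction (exact sign-flip p = 0.25, 0.75, 1 and 0.5), and 6 of the 1-Mb bins passed, 4 higher and 2 lower in E13.5 male cells. The other 61 of the 98 alternatives, among them 0.156 Mb for length with 897 peaks, kept their direction or stayed within 1.5 times.

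List length limits every comparison with E10.5 replicates 1 and 3: a bin outside a short list is uncalled, which does not show that it was unmarked. Each list is 1 library, the smallest peak widths and gaps differed between lists, and E10.5 cells have no sex label, so none of the differences can be assigned to stage alone.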

Other observations

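The first 10% of the autosomes, next to the centromeres, held 15.5, 15.9 and 15.3% of the H3K9me3 length in E13.5 male lists and 15.7, 15.3 and 22.6% in E10.5 lists. The last 10% held 7.47, 6.95 and 7.67% in E13.5 male and 9.02, 8.51 and 7.98% in E10.5 lists, which were all above the male lists. The 1% of 1-Mb bins with the most marked length held 11.6, 14.5 and 15.0% of it in E13.5 male and 12.9, 19.2 and 40.8% in E10.5 lists. E10.5 replicate 3, with 897 peaks, was the highest in the first and the third of these measures, E10.5 replicate 2 also exceeded the male lists in the third, and none of them was tested.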
